A study of Mus musculus with 8 samples.

Results

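Tumour cDC2 were compared by their EGFP label: 2 EGFP-positive libraries against 2 EGFP-negative libraries, 4 of the 8 libraries of the series. The members were chosen by their sample labels alone, and all genes of the count table were described. Wild-type mice bore tumours of MC38-EGFP, a mouse colon carcinoma line made to produce enhanced green fluorescent protein, and conventional dendritic cells (cDC) were isolated from the tumours by flow sorting. All 4 groups of the series (cDC1 and cDC2, each EGFP-positive and EGFP-negative) come from such tumours, and no drug treatment is named for any library, although the title of the series names sitagliptin, a drug against the peptidase DPP4. The labels number the libraries of a group 1 and 2 without saying whether these are separate animals, so every p-value reflects the spread between libraries that may be technical repeats.

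Dendritic cells take up material from their surroundings, digest it in endosomes and lysosomes, and present its peptides on MHC molecules. cDC2 are the subset best known for presenting peptides on MHC class II to CD4 T cells. A dendritic cell does not make EGFP itself, so green fluorescence is taken as a mark of a cell that holds tumour-derived material. No measure of uptake was used here, and attached or admixed tumour cells cannot be told apart from it. Tumour macrophages and monocyte-derived cells share many surface proteins with cDC2 and also take up tumour material.

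Library totals in cDC2 were 18201995 to 20357915 counts, of which the ribosomal RNA precursor Rn45s took 19.4% to 31.4%. Between 10301 and 11922 genes had at least 1 count. Levels below are CPM (read counts divided by library size, with TMM scaling), given as EGFP-negative replicates 1 and 2, then EGFP-positive replicates 1 and 2. Log2 fold changes are EGFP-positive over EGFP-negative, with their standard error. Over genes, log2 CPM correlated (Pearson) at 0.796 between the EGFP-negative libraries and 0.798 between the EGFP-positive libraries, against 0.716 to 0.813 between libraries of different groups, where genes are not independent replicates.

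The label cDC2 was checked against markers. The dendritic cell factor Zbtb46 was at 0.0555, 0.138, 0 and 1.08 CPM, and the growth factor receptor Flt3 at 11.1, 0, 5.31 and 0.0514 CPM. Both are defining genes of conventional dendritic cells, and both were at or near 0 in at least 1 library of each group. Sirpa, a surface protein of cDC2 and macrophages, was at 244, 279, 349 and 177 CPM, the integrin gene Itgax (CD11c) at 53.5, 85.1, 74.6 and 54.3 CPM, and the cDC2 lectin gene Cd209a at 66.7, 56.6, 19.8 and 40.2 CPM. Lysozyme (Lyz2), an abundant product of macrophages and monocytes, reached 23303, 19058, 18092 and 10597 CPM. All 29 macrophage and monocyte markers had counts, summing to 66103, 56039, 58064 and 33524 CPM, against 574, 568, 385 and 446 CPM for the 13 markers shared by conventional dendritic cells. The 24 cDC2 identity genes summed to 12014, 9726, 7388 and 5954 CPM. That list holds Il1b, at 6360, 4659, 1847 and 1618 CPM, and shares Csf1r and Cx3cr1 with the macrophage list. The data therefore go against a pure dendritic cell identity in both fractions, and cDC2 is used below as the name of the sorted gate. Fewer cells of a type and less RNA per cell cannot be told apart in such bulk samples.

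EGFP-positive replicate 2 stood apart from the other 3 libraries. It held 84 genes at 10 CPM or more that were under 1 CPM in each of the other 3, whereas the other libraries held 6, 1 and 1 such genes. Of 28 stromal and matrix markers, 16 reached 1 CPM in it, against 7 and 4 in the EGFP-negative libraries and 5 in EGFP-positive replicate 1. Their summed level was 143, 93.1, 78.2 and 444 CPM. Sparc, a matrix glycoprotein gene, was at 1.55, 0, 0.0536 and 131 CPM. The proteoglycan gene Bgn was at 0.167, 0.0917, 1.66 and 43.2 CPM. Hmga2, a chromatin protein gene of embryonic and tumour cells, was at 0.278, 0, 1.18 and 33.1 CPM. These transcripts were highest in EGFP-positive replicate 2, as the plot of the EGFP-positive libraries against each other shows. In EGFP-positive replicate 1, Bgn and Hmga2 were low but above both EGFP-negative libraries. In cDC1, scaled over all 8 libraries, Bgn was at 0.0935, 0.140, 269 and 21.4 CPM and Sparc at 4.67, 3.50, 674 and 0.140 CPM. The metalloproteinase gene Mmp2 was at 1.61, 0.0458, 8.05 and 25.7 CPM in cDC2. Of 10 tested stromal and matrix members, 2 were higher (20%, all genes 23.6%) and 2 lower (20%, all genes 20.3%) without overlap. Col3a1, a fibrillar collagen gene, was at 0, 0.917, 0.0536 and 25.0 CPM, and the keratin gene Krt14 and the mesothelial gene Msln also reached 10 CPM in EGFP-positive replicate 2 alone. Other defining markers were at or near 0 in all 4 libraries: the keratin gene Krt8 had 0 counts, the epithelial adhesion gene Epcam was at 0, 0, 2.57 and 0 CPM, and the collagen gene Col1a1 stayed between 0 and 0.411 CPM. Each gene list below is therefore also given without EGFP-positive replicate 2, and its median with each library left out.

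**Figure D1:**
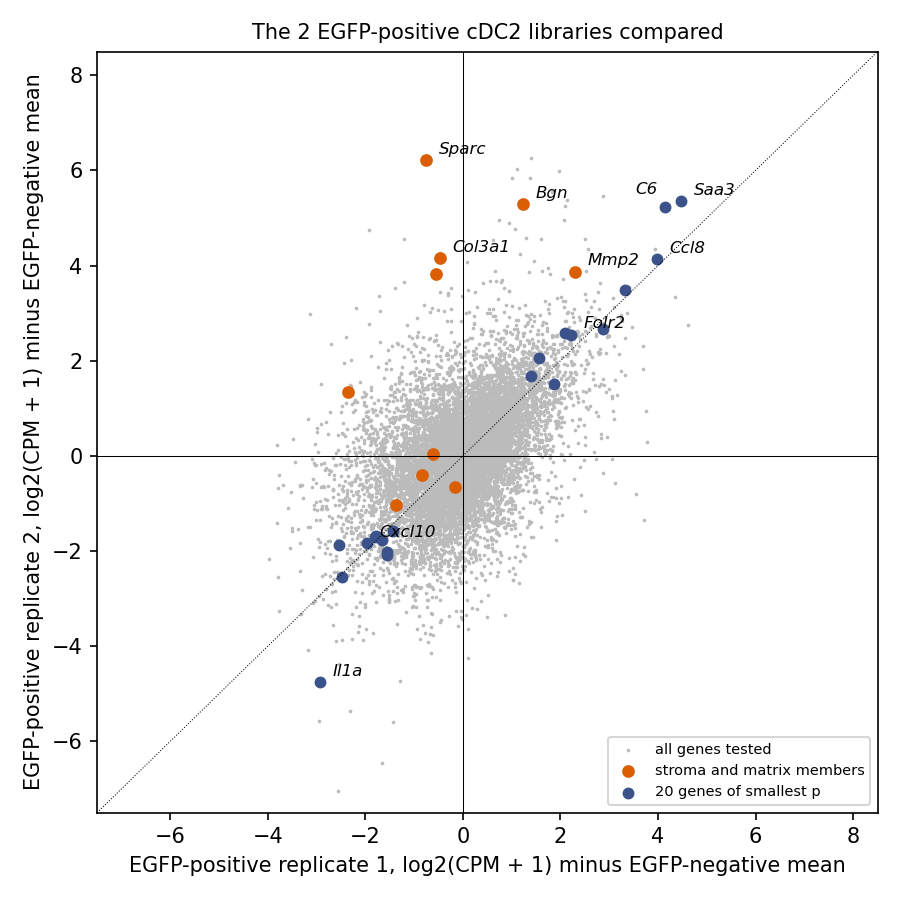
Each point is a gene: the horizontal axis gives log2(CPM + 1) in EGFP-positive replicate 1 minus that of the EGFP-negative mean, the vertical axis the same for EGFP-positive replicate 2, and the dotted line marks equal values. The stromal and matrix members Sparc and Bgn (orange) lie far above the line, high mainly in replicate 2. The 20 genes of smallest p (blue), such as Saa3 and Il1a, lie nearer to it. Those genes were chosen for small p and no overlap between the groups, which favours replicates that agree.

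Which genes differ between cDC2 sorted as EGFP-positive and those sorted as EGFP-negative was asked first. Among the genes of smallest p, the chemokines Ccl7 and Ccl8 and the tissue-macrophage genes Folr2 and Maf were higher in both EGFP-positive libraries. The interleukin-1 genes Il1a and Il1r2 and the chemokine Cxcl10 were lower in both. Of 29 tested macrophage and monocyte markers, 7 were higher without overlap (24.1%, all genes 23.6%) and 6 lower (20.7%, all genes 20.3%). None of the 10548 genes tested passed an adjusted p of 0.05 in edgeR's quasi-likelihood test with Benjamini-Hochberg adjustment (background 0%, smallest adjusted p = 0.523). At an unadjusted p under 0.05 there were 939, 476 of them higher (4.51%) and 463 lower (4.39%). DESeq2 called 256 genes and limma's voom with library quality weights 5 (Ccl7, Ccl8, Il1a, Cxcl10 and Folr2), so which genes pass depends on the tool. The edgeR count was 16 without EGFP-positive replicate 1 and 0 without each of the other libraries. The 2 groups of libraries did not overlap for 2486 genes that were higher (23.6%) and 2137 that were lower (20.3%). They lay at least 2-fold apart, the lowest library of one group against the highest of the other, for 680 higher genes (6.45%) and 385 lower genes (3.65%). Without EGFP-positive replicate 2 these numbers were 1057 and 1088, so the excess of higher genes was not seen on the other 3 libraries. The median log2 fold change of all genes was 0.06. The genes named next are the 10 of smallest p in each direction, among genes with a mean of at least 10 CPM and no overlap between the groups. Their separation follows from that choice, and their values are descriptions.

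**Figure D2:**
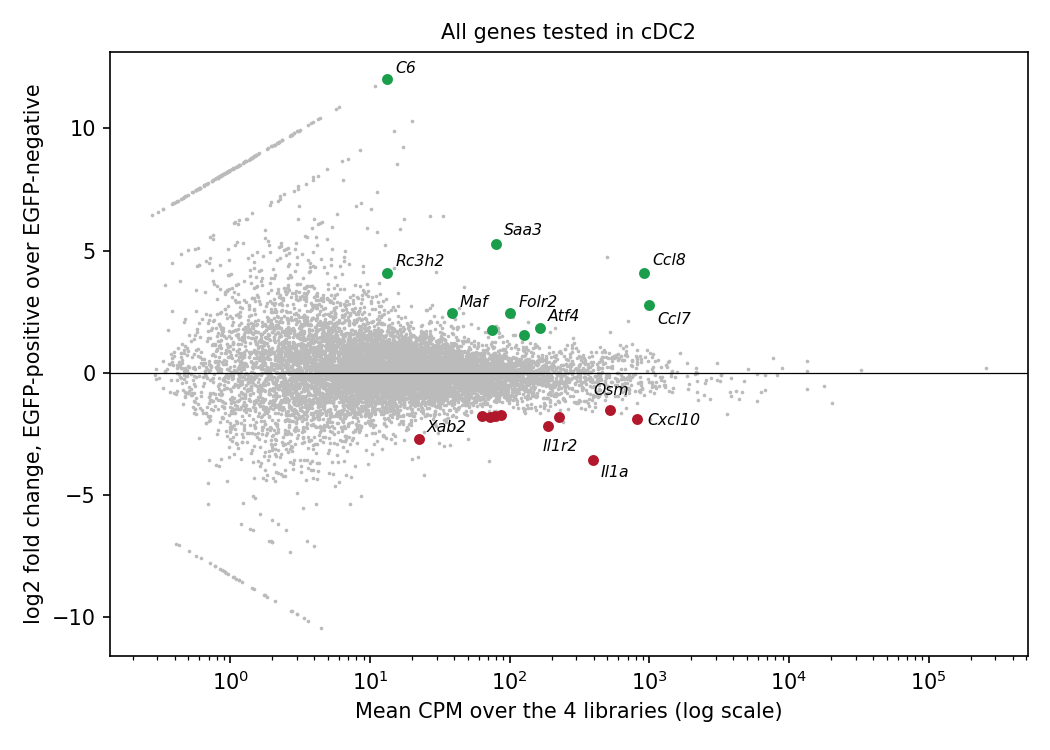
Each point is 1 of the 10548 genes tested, with its mean CPM over the 4 libraries on a log axis and its log2 fold change (EGFP-positive over EGFP-negative). Green and red points are the 10 genes of smallest p that were higher and lower, of which Ccl7, Ccl8, Cxcl10, Il1a and Osm are the most abundant; the diagonal lines of points at the edges are genes with 0 counts in 1 group.

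Among the higher genes, Folr2, a folate receptor of tissue-resident macrophages, was at 32.1, 30.9, 150 and 189 CPM. Both EGFP-positive libraries lay above both EGFP-negative ones, with replicates close to each other (log2 fold change 2.43 ± 0.30, adjusted p = 0.523 in edgeR). Its adjusted p ranged from 2.02968e-08 in DESeq2 to 1 over 14 settings, and its fold change from 2.25 to 2.56. The complement gene C6 had 0 counts in both EGFP-negative libraries and stood at 16.6 and 36.6 CPM in the EGFP-positive ones. That was at least 353-fold higher with 3 counts taken as the floor of the group, or 220-fold with EGFP-positive replicate 1 alone. C6 entered the test through the EGFP-positive group alone, as did Lyve1 and Cd163 below, and 168 tested genes had 0 counts in 1 group. Such bounds cover counting error and not drop-out. Of 8256 genes with at least 100 counts in either EGFP-negative library, 232 (2.81%) had 0 in the other. Maf, a transcription factor of resident macrophages, was at 11.2, 12.5, 54.0 and 75.8 CPM (2.45 ± 0.39). Saa3, an acute-phase protein gene, was at 1.11, 6.78, 109 and 201 CPM (5.28 ± 0.88). For these genes too the EGFP-positive libraries were high and the EGFP-negative ones low, with no overlap, as their selection required.

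Atf4, the transcription factor of the integrated stress response, was at 74.6, 68.2, 213 and 300 CPM (1.84 ± 0.31). The other higher genes of the 10 were Rc3h2, Ccnl1 and Neat1. Rc3h2, an RNA-binding ubiquitin ligase gene, was at 1.999, 0.917, 23.6 and 26.4 CPM (4.10 ± 0.72). Ccnl1, a cyclin linked to splicing, was at 32.4, 36.8, 128 and 101 CPM (1.73 ± 0.31). The nuclear non-coding RNA Neat1 was at 69.4, 59.7, 172 and 208 CPM (1.56 ± 0.29). The EGFP-positive libraries lay above the EGFP-negative ones in each case, again by selection.

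Among the lower genes, Cxcl10, an interferon-induced chemokine that attracts T cells, was at 1295, 1266, 326 and 358 CPM. The EGFP-negative libraries were high and nearly equal, and the EGFP-positive ones low (log2 fold change −1.90 ± 0.30). Ifngr1, the ligand-binding chain of the interferon-gamma receptor, was at 360, 343, 119 and 82.5 CPM (−1.81 ± 0.31). Osm, which encodes the cytokine oncostatin M, was at 818, 732, 286 and 258 CPM (−1.51 ± 0.29). In these genes of cytokine signalling each EGFP-positive library lay below each EGFP-negative one, which the selection also required.

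Fes, a myeloid tyrosine kinase gene, was at 125, 101, 37.8 and 27.0 CPM (−1.80 ± 0.33). Xab2, a splicing and DNA repair factor gene, was at 39.3, 38.0, 6.12 and 5.76 CPM (−2.70 ± 0.46). The membrane protein genes Tmem109, Tmem119 and Mcemp1 gave log2 fold changes of −1.74 ± 0.28, −1.76 ± 0.29 and −1.79 ± 0.32, with no overlap between the groups. Over 14 settings the fold change of Cxcl10 stayed between −1.97 and −1.86 and that of Xab2 between −2.77 and −2.66. Adjusted p over those settings ranged from 1.65348e-10 to 1 for Cxcl10 and from 0.000367294 to 1 for Xab2, the lowest with DESeq2.

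**Figure D3:**
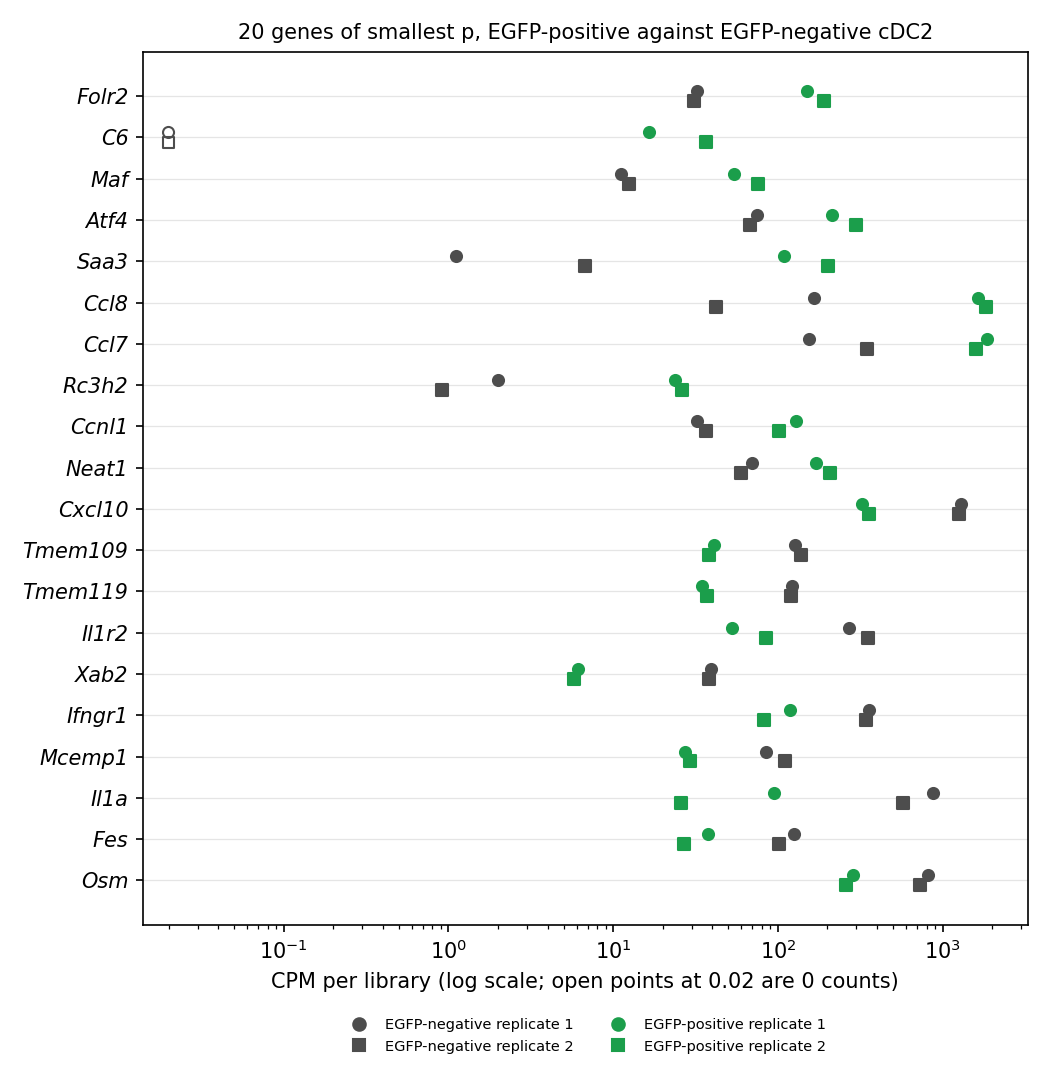
CPM on a log axis in each of the 4 cDC2 libraries for the 10 higher (top) and 10 lower (bottom) genes of smallest p, grey for EGFP-negative and green for EGFP-positive, circles for replicate 1 and squares for replicate 2. In every row the grey and green points are apart, as the choice of genes required, with C6 at 0 counts in both EGFP-negative libraries (open points).

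The promoters of 1 abundant gene of the higher set (Ccl8) and 2 of the lower set (Cxcl10 and Il1a) are shown because the chemokine and cytokine results turn on these 3 genes. Promoter entries for Ccl7 and Ccl2 were lacking in the set used, so these genes were not searched. Each is the stretch of 250 bases before the annotated start, on the gene's strand from RefSeq (GRCm38.p6). Capitals mark matches, on either strand, to the motifs of NF-kB (GGGA, any 4 bases, then CC), of the interferon-stimulated response element (GAAA, any 2 bases, then GAAA) and of AP-1 (TGANTCA), none of which overlap in these stretches.
Ccl8, chr11:82114935-82115184, plus strand: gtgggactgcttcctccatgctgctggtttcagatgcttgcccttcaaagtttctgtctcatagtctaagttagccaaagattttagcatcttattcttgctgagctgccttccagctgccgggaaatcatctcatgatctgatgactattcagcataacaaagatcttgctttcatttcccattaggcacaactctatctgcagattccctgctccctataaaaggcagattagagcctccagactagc
Cxcl10, chr5:92348890-92349139, minus strand: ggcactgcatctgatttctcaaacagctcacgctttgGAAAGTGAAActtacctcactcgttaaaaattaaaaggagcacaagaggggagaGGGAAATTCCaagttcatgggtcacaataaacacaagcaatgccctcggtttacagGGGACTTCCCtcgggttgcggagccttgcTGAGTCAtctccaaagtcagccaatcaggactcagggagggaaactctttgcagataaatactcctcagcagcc
Il1a, chr2:129309973-129310222, minus strand: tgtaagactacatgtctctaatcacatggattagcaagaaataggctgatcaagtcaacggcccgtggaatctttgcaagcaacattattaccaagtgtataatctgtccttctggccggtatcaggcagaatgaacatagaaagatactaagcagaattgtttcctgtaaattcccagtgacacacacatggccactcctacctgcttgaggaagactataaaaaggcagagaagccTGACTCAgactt
Cxcl10 held 2 NF-kB matches (159 to 150 and 103 to 94 bases before the start), 1 interferon-stimulated response element match (213 to 204) and 1 AP-1 match (74 to 68). Il1a held 1 AP-1 match, 12 to 6 bases before the start, and Ccl8 held 0 of the 3 motifs. Matches to these letters did not follow the direction of the difference in the other promoters searched. Il1b, a lower gene, held 0 matches, and Nfkbie, also lower, held 1 AP-1 match (156 to 150). Folr2, a higher gene, held 1 AP-1 match (74 to 68) at 1 of its 2 annotated starts. The NF-kB letters require an A after GGG. Stretches with a G there, such as GGGGGATTCC before Nfkbie, were therefore not counted, so NF-kB sites may have been missed. Of 32851 promoter stretches of that length, 17.6% held the NF-kB letters, 2.98% those of the interferon-stimulated response element and 6.75% those of AP-1. The matches describe sequence and not binding.

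Ccl7 and Ccl8, both in the higher set, lie in a run of chemokine genes whose members differed unevenly. Ccl2, Ccl7, Ccl11, Ccl12, Ccl8 and Ccl1 lie in this order on chromosome 11 (GRCm38, from base 82035577 at the start of Ccl2 to base 82179812 at the end of Ccl1). Ccl2, the main ligand of the monocyte receptor CCR2, was at 116, 418, 1259 and 1026 CPM (log2 fold change 2.10 ± 0.60). Ccl7, a ligand of the same receptor, was at 155, 349, 1852 and 1606 CPM (2.78 ± 0.47). Ccl8 was at 165, 42.3, 1644 and 1830 CPM (4.07 ± 0.68). The EGFP-positive libraries were high in all 3 genes and did not overlap with the EGFP-negative ones. Ccl12, a mouse relative of Ccl2, was at 77.8, 62.8, 190 and 106 CPM (1.07 ± 0.37), also without overlap. The eosinophil chemokine Ccl11 had 0 counts in all 4 libraries, and Ccl1 was at 0.722 CPM in EGFP-negative replicate 1 and at 0 in the others. Over 14 settings the fold change of Ccl7 ranged from 2.30 to 3.47, that of Ccl8 from 3.39 to 5.35 and that of Ccl2 from 1.44 to 3.29. These genes are close relatives, and the sources used here do not say how shared reads were counted. The grouping by position was chosen after the values were seen.

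**Figure D4:**
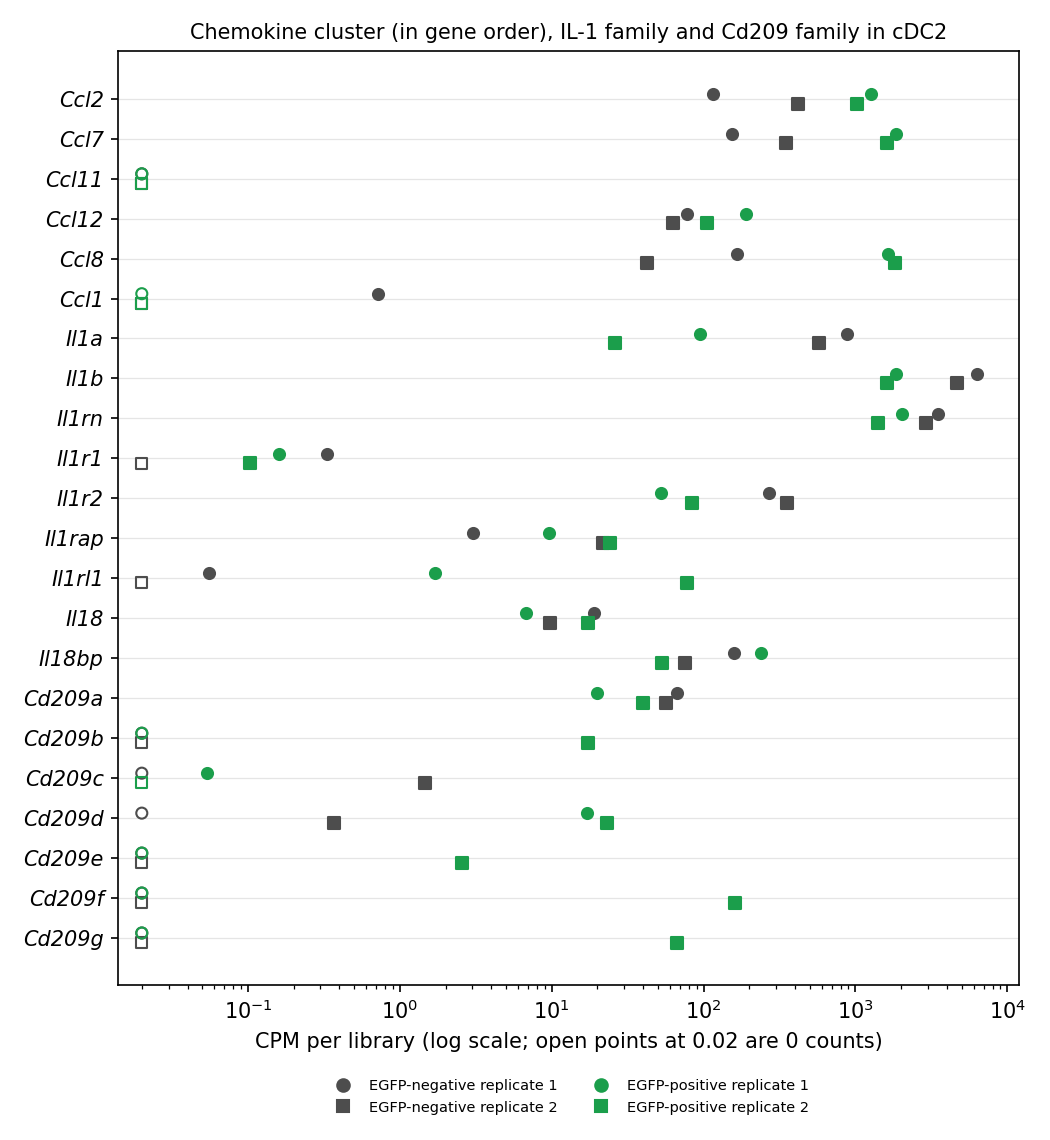
CPM on a log axis in the 4 cDC2 libraries (grey EGFP-negative, green EGFP-positive, circles replicate 1, squares replicate 2) for the chemokine genes of chromosome 11 in their order, the interleukin-1 family and the Cd209 family. Ccl2, Ccl7 and Ccl8 are higher in green, Il1a, Il1b, Il1rn and Il1r2 lower in green, and Cd209b, Cd209e, Cd209f and Cd209g have counts in EGFP-positive replicate 2 alone.

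Interleukin-1 genes went the other way. Il1a, an alarm cytokine, was at 874, 578, 94.7 and 25.95 CPM (log2 fold change −3.59 ± 0.66). Il1b, the secreted form processed by the inflammasome, was among the most abundant transcripts at 6360, 4659, 1847 and 1618 CPM (−1.67 ± 0.35). The decoy receptor gene Il1r2 was at 270, 352, 52.7 and 84.4 CPM (−2.18 ± 0.35). The receptor antagonist gene Il1rn was at 3503, 2935, 2037 and 1399 CPM (−0.91 ± 0.35). Agonists and both antagonists of the pathway were thus lower in each EGFP-positive library than in each EGFP-negative one. Signalling receptor genes did not share this: Il1r1 stayed at or under 0.333 CPM, and the co-receptor gene Il1rap overlapped at 3.05, 21.7, 9.60 and 24.3 CPM. Il1rl1, the interleukin-33 receptor gene, was at 0.0555, 0, 1.72 and 77.5 CPM, so its level rests on EGFP-positive replicate 2. Over 14 settings the fold change of Il1a ranged from −4.83 to −2.94 and that of Il1b from −1.88 to −1.44.

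Of 38 tested inflammatory cytokine and NF-kB genes, 8 were higher (21.1%, all genes 23.6%) and 15 lower (39.5%, all genes 20.3%) without overlap. With EGFP-positive replicate 2 left out the counts were 15 and 17 (39.5% and 44.7%, all genes 36.6% and 33.0%). A list median of −0.23, against 0.06 over all genes, ran from −0.81 without EGFP-positive replicate 1 to −0.28 without EGFP-negative replicate 1 over the 4 fits with 1 library left out. As in every list below, 0 members passed the adjusted threshold. At least 2-fold apart were Ccl8, Ccl7, Ccl2 and Il10 on the higher side and Cxcl10, Il1a, Osm, Nfkbie and Il1b on the lower side. Nfkbie, an inhibitor of NF-kB that is itself an NF-kB target, was at 187, 192, 77.4 and 49.1 CPM (−1.58 ± 0.33). Il10, an anti-inflammatory cytokine gene, was low throughout at 0, 0.0458, 1.72 and 3.91 CPM. The list therefore split, with the chemokines Ccl2, Ccl7 and Ccl8 and the interleukin-1 genes at opposite ends.

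On all 4 libraries the macrophage markers as a list were near the shares of all genes in both directions. The list of macrophage and monocyte markers had 29 tested members, of which 7 were higher (24.1%, against 23.6% of all genes) and 6 lower (20.7%, against 20.3%) without overlap. On 3 libraries, leaving out EGFP-positive replicate 2, 15 were higher (51.7%, all genes 36.6%) and 6 lower (20.7%, all genes 33.0%). The list's median was −0.14 (all genes 0.06), with −0.59 (without EGFP-positive replicate 1) and 0.09 (without EGFP-positive replicate 2) as the extremes on leaving out 1 library. The higher ones included genes of resident or scavenging macrophages. Gpnmb, a lysosomal glycoprotein gene, was at 3.66, 6.55, 42.1 and 26.4 CPM (2.74 ± 0.58). The haemoglobin scavenger receptor gene Cd163 had 0 counts in the EGFP-negative libraries and stood at 2.31 and 5.19 CPM, at least 49.8-fold higher with the same floor, or 30.6-fold with EGFP-positive replicate 1 alone. Pf4, which encodes platelet factor 4, was at 598, 257, 912 and 813 CPM (1.01 ± 0.44), and F13a1, a clotting factor gene of macrophages, at 72.9, 64.3, 91.4 and 213 CPM (1.15 ± 0.44). Broader markers were lower without overlap: Cd14 was at 5057, 5119, 3519 and 1778 CPM (−0.94 ± 0.42), and Csf1r, the receptor for macrophage colony-stimulating factor, at 622, 522, 355 and 212 CPM (−1.01 ± 0.35). Arg1, an arginine-degrading enzyme gene of tumour macrophages, was at 9037, 7300, 4849 and 2521 CPM (−1.15 ± 0.43). General macrophage genes overlapped, with Adgre1 at 319, 205, 262 and 121 CPM and C1qa at 2159, 1769, 2553 and 1016 CPM. The summed marker level, 66103, 56039, 58064 and 33524 CPM, also overlapped.

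Further genes known from resident macrophages of the body's serous cavities and connective tissue were looked up after the values were seen. Fcna, a lectin of the complement system, was at 3.78, 11.3, 48.3 and 125 CPM (3.52 ± 0.72). The hyaluronan receptor gene Lyve1 had 0 counts in both EGFP-negative libraries and 3.38 and 40.3 CPM in the EGFP-positive ones, at least 290-fold higher with the same floor, or 44.9-fold with EGFP-positive replicate 1 alone. Igf1, a growth factor gene, was at 0, 0.596, 25.5 and 12.1 CPM (5.92 ± 1.57). Retnla, a product of alternatively activated macrophages, was at 71.2, 1.60, 273 and 1646 CPM (4.72 ± 1.67), with wide spread within both groups. In all 4 genes the EGFP-positive libraries were the higher pair. Stab1, a scavenger receptor gene, was higher by a small margin, at 49.1, 63.8, 90.8 and 66.0 CPM. Timd4 and Vsig4, known from the same cells, did not follow: Timd4 was at 0, 7.197, 0 and 3.13 CPM, and Vsig4 had 0 counts in all libraries.

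The Cd209 family of C-type lectins, which bind sugars on microbes and cells, differed between its members. Cd209a, the member used as a cDC2 marker, was lower without overlap (66.7, 56.6, 19.8 and 40.2 CPM, −1.04 ± 0.44). Cd209d was at 0, 0.367, 17.1 and 23.2 CPM (6.68 ± 1.43) and so stood high in both EGFP-positive libraries. Cd209f and Cd209g had 0 counts in 3 libraries and 161 and 66.4 CPM in EGFP-positive replicate 2. The family members have similar sequences, and the family was looked at after its values were seen.

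Markers of the cDC2 gate stood on both sides. Of 18 tested cDC2 identity genes, 6 were higher (33.3%, all genes 23.6%) and 6 lower (33.3%, all genes 20.3%) without overlap. Those counts became 8 (44.4%) and 7 (38.9%) when EGFP-positive replicate 2 was left out, against 36.6% and 33.0% of all genes. Their median log2 fold change was −0.14 (all genes 0.06) and lay between −0.59, without EGFP-positive replicate 1, and 0.14, without EGFP-positive replicate 2, when each library was left out in turn. The lectin gene Clec10a was at 42.5, 21.7, 53.3 and 106 CPM (1.31 ± 0.50), the zinc-finger factor gene Klf4 at 88.2, 111, 181 and 246 CPM (1.10 ± 0.31) and Tmem176a, a cation channel gene, at 25.9, 3.16, 54.7 and 77.9 CPM (2.19 ± 0.90). These 3 genes were higher in each EGFP-positive library. The lipid-presenting molecule gene Cd1d1 was at 44.5, 17.6, 8.15 and 6.27 CPM (−2.11 ± 0.63), and the fractalkine receptor gene Cx3cr1 at 23.6, 26.8, 5.10 and 9.76 CPM (−1.76 ± 0.57), both lower. Irf4, the cDC2 transcription factor, was low at 0.278, 9.03, 9.92 and 13.8 CPM. Dpp4, the target of the drug in the series title, was at 5.83, 1.15, 0.644 and 0 CPM.

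Genes of MHC class II presentation were lower in many cases. The list of genes of MHC class II presentation had 18 tested members, of which 1 was higher (5.56%, against 23.6% of all genes) and 10 lower (55.6%, against 20.3%) without overlap. With EGFP-positive replicate 2 left out the counts were 4 and 11 (22.2% and 61.1%, all genes 36.6% and 33.0%). A list median of −0.65, against 0.06 over all genes, ran from −1.30 without EGFP-positive replicate 1 to −0.25 without EGFP-positive replicate 2 over the 4 fits with 1 library left out. The list also holds the lectin gene Cd209a, without which 9 of 17 were lower (52.9%) and 1 higher, with a median of −0.65. H2-Aa, a class II chain, was at 8820, 7078, 6004 and 3186 CPM (−0.79 ± 0.43), and the invariant chain gene Cd74 at 17543, 15323, 13941 and 6965 CPM (−0.65 ± 0.45). H2-DMb1, a chain of the peptide-loading factor, was at 645, 510, 332 and 151 CPM (−1.26 ± 0.43). EGFP-positive replicate 2 was the lowest library for each of these genes. The 1 higher member, H2-Ob, which restrains class II loading, was at 0.111, 3.39, 13.8 and 9.30 CPM. Of 20 tested genes of MHC class I presentation, 2 were higher (10%, all genes 23.6%) and 4 lower (20%, all genes 20.3%) without overlap. On 3 libraries, leaving out EGFP-positive replicate 2, 9 were higher (45%, all genes 36.6%) and 4 lower (20%, all genes 33.0%). The list's median was −0.25 (all genes 0.06), with −0.82 (without EGFP-positive replicate 1) and 0.09 (without EGFP-positive replicate 2) as the extremes on leaving out 1 library.

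The list of costimulatory and checkpoint genes had 20 tested members, of which 0 were higher (0%, against 23.6% of all genes) and 10 lower (50%, against 20.3%) without overlap. Those counts became 4 (20%) and 10 (50%) when EGFP-positive replicate 2 was left out, against 36.6% and 33.0% of all genes. The median log2 fold change was −0.62 (all genes 0.06) and lay between −0.81, without EGFP-positive replicate 1, and −0.51, without EGFP-positive replicate 2, when each library was left out in turn. The T-cell costimulator gene Cd80 was at 27.2, 51.8, 14.5 and 17.0 CPM (−1.33 ± 0.48) and the maturation marker Cd83 at 271, 317, 147 and 170 CPM (−0.89 ± 0.28). The inhibitory receptor gene Pilra was at 284, 211, 129 and 79.8 CPM (−1.25 ± 0.35). Costimulators and inhibitory receptors were thus both on the lower side.

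Of 24 tested genes of migration and chemokine receptors, 3 were higher (12.5%, all genes 23.6%) and 12 lower (50%, all genes 20.3%) without overlap. With EGFP-positive replicate 2 left out the counts were 5 and 13 (20.8% and 54.2%, all genes 36.6% and 33.0%). A list median of −0.47, against 0.06 over all genes, ran from −1.16 without EGFP-positive replicate 1 to −0.17 without EGFP-negative replicate 2 over the 4 fits with 1 library left out. Coro1a, an actin regulator of leukocytes, was at 1023, 945, 439 and 294 CPM (−1.43 ± 0.33), and the integrin chain gene Itgb2 at 1217, 1077, 650 and 317 CPM (−1.24 ± 0.41). The adhesion receptor gene Cd44 was higher, at 286, 297, 525 and 539 CPM (0.87 ± 0.28).

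The list of genes of glycolysis and the hypoxia response had 32 tested members, of which 3 were higher (9.38%, against 23.6% of all genes) and 16 lower (50%, against 20.3%) without overlap. On 3 libraries, leaving out EGFP-positive replicate 2, 5 were higher (15.6%, all genes 36.6%) and 21 lower (65.6%, all genes 33.0%). The list's median was −0.45 (all genes 0.06), with −0.63 (without EGFP-positive replicate 2) and −0.39 (without EGFP-negative replicate 1) as the extremes on leaving out 1 library. The lower ones included enzymes of the glycolytic chain and a transporter. Slc16a3, the lactate exporter, was at 253, 301, 113 and 80.0 CPM (−1.52 ± 0.31), and Pfkp, a phosphofructokinase, at 206, 178, 73.1 and 79.3 CPM (−1.33 ± 0.27). Pkm, pyruvate kinase, was at 3944, 3456, 1898 and 1617 CPM (−1.07 ± 0.33), Aldoa (aldolase) at 2778, 2735, 2030 and 1198 CPM (−0.77 ± 0.37) and Gapdh at 5570, 5003, 3449 and 2761 CPM (−0.77 ± 0.34). In each of them the EGFP-positive libraries were the lower pair. Vegfa, the angiogenic factor gene and a hypoxia target, was higher at 74.8, 81.2, 154 and 151 CPM (0.97 ± 0.27), and the other 2 higher members were Hk2 and Egln1.

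Of 47 tested cytosolic ribosomal protein genes, 32 were higher (68.1%, all genes 23.6%) and 1 lower (2.13%, all genes 20.3%) without overlap. Those counts became 32 (68.1%) and 3 (6.38%) when EGFP-positive replicate 2 was left out, against 36.6% and 33.0% of all genes. Their median log2 fold change was 0.58 (all genes 0.06) and lay between 0.26, without EGFP-positive replicate 2, and 0.81, without EGFP-negative replicate 2, when each library was left out in turn. Rps28 was at 151, 198, 319 and 493 CPM (1.22 ± 0.34) and Rps20 at 275, 374, 567 and 682 CPM (0.94 ± 0.31). The differences were modest, and 0 members lay 2-fold apart. These genes have many processed pseudogenes, between which the counting could split reads.

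The list of subunits of oxidative phosphorylation had 44 tested members, of which 19 were higher (43.2%, against 23.6% of all genes) and 10 lower (22.7%, against 20.3%) without overlap. With EGFP-positive replicate 2 left out the counts were 28 and 11 (63.6% and 25%, all genes 36.6% and 33.0%). A list median of 0.18, against 0.06 over all genes, ran from −0.02 without EGFP-positive replicate 1 to 0.28 without EGFP-positive replicate 2 over the 4 fits with 1 library left out. Uqcrh, a small subunit of complex III, was at 85.9, 110, 212 and 200 CPM (1.07 ± 0.28). Sdha, the flavoprotein of complex II, was at 211, 185, 65.2 and 78.8 CPM (−1.46 ± 0.28), Uqcrc1, a core subunit of complex III, at 231, 266, 152 and 121 CPM (−0.87 ± 0.29) and Atp5b, a catalytic subunit of the ATP synthase, at 1184, 1193, 719 and 539 CPM (−0.92 ± 0.31). Subunits of complex III therefore stood on both sides, and transcript length moved with this split. Of the 22 members with a longest coding transcript under 1000 bases (GENCODE M21), 13 were higher and 0 lower without overlap, and of the 22 longer ones 6 were higher and 10 lower. Among all genes tested, those under 1000 bases were higher without overlap in 38.5% and lower in 8.46% of 520 cases, those of 1000 to 2000 bases in 16.5% and 25.6%, those of 2000 to 4000 bases in 18.3% and 26.6%, and those of 4000 bases or more in 31.2% and 12.4%. Of the ribosomal protein genes, 18 of 24 under 1000 bases and 14 of 23 longer ones were higher without overlap. The part of transcript length in these list results was not tested.

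Immediate early and stress genes, which respond within minutes to stimulation or damage, stood on both sides. Of 30 tested immediate early and stress genes, 16 were higher (53.3%, all genes 23.6%) and 11 lower (36.7%, all genes 20.3%) without overlap. On 3 libraries, leaving out EGFP-positive replicate 2, 16 were higher (53.3%, all genes 36.6%) and 11 lower (36.7%, all genes 33.0%). The list's median was 0.43 (all genes 0.06), with 0.24 (without EGFP-negative replicate 1) and 0.62 (without EGFP-negative replicate 2) as the extremes on leaving out 1 library. Jund, an AP-1 subunit, was at 35.9, 36.4, 92.5 and 165 CPM (1.84 ± 0.37), Egr1, a zinc-finger transcription factor, at 34.0, 69.0, 181 and 256 CPM (2.08 ± 0.42) and Klf2 at 19.1, 53.1, 92.8 and 261 CPM (2.29 ± 0.66). The heat shock protein gene Hspa1a was at 4.05, 19.7, 73.5 and 77.3 CPM (2.67 ± 0.73), and its co-chaperone Dnajb1 at 27.7, 50.3, 97.2 and 157 CPM (1.70 ± 0.42). Each of these was higher in both EGFP-positive libraries. Junb, another AP-1 subunit, was lower at 887, 865, 569 and 373 CPM (−0.90 ± 0.33).

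The list of genes of the unfolded protein response had 22 tested members, of which 5 were higher (22.7%, against 23.6% of all genes) and 6 lower (27.3%, against 20.3%) without overlap. Those counts became 7 (31.8%) and 11 (50%) when EGFP-positive replicate 2 was left out, against 36.6% and 33.0% of all genes. The median log2 fold change was 0.22 (all genes 0.06) and lay between −0.21, without EGFP-negative replicate 1, and 0.53, without EGFP-negative replicate 2, when each library was left out in turn. The 2 members that lay 2-fold apart were Atf4 and its target Ddit3. Ddit3, which encodes the stress factor CHOP, was at 13.2, 13.8, 33.7 and 47.4 CPM (1.59 ± 0.43), and Atf3, another target of Atf4, at 159, 149, 304 and 523 CPM (1.42 ± 0.35). Ppp1r15a, a list member and a further target of this pathway, was higher without overlap at 27.1, 45.2, 67.1 and 60.4 CPM. Other Atf4 targets were picked out after the values were seen, and their groups overlapped. Asns, Sesn2, Trib3 and Chac1 are members of the list, and Phgdh is not. The asparagine synthetase gene Asns was at 6.72, 3.85, 0.376 and 53.0 CPM and Sesn2 at 9.88, 3.94, 0.0536 and 6.01 CPM. Trib3 was at 0.0555, 3.44, 1.72 and 27.4 CPM. Chac1 had counts in EGFP-positive replicate 2 alone (9.40 CPM), and Phgdh was high only there (94.6 CPM).

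Of 28 tested antigen uptake receptors, 6 were higher (21.4%, all genes 23.6%) and 9 lower (32.1%, all genes 20.3%) without overlap. With EGFP-positive replicate 2 left out the counts were 13 and 11 (46.4% and 39.3%, all genes 36.6% and 33.0%). A list median of −0.32, against 0.06 over all genes, ran from −0.68 without EGFP-positive replicate 1 to −0.07 without EGFP-positive replicate 2 over the 4 fits with 1 library left out. Olr1, a receptor for oxidised lipoprotein, was at 90.4, 30.9, 11.7 and 3.29 CPM (−3.01 ± 0.80). The list of genes of the phagosome and lysosome had 45 tested members, of which 4 were higher (8.89%, against 23.6% of all genes) and 18 lower (40%, against 20.3%) without overlap. On 3 libraries, leaving out EGFP-positive replicate 2, 15 were higher (33.3%, all genes 36.6%) and 20 lower (44.4%, all genes 33.0%). The list's median was −0.34 (all genes 0.06), with −0.85 (without EGFP-positive replicate 1) and −0.10 (without EGFP-positive replicate 2) as the extremes on leaving out 1 library. The hexosaminidase gene Hexa was at 637, 541, 273 and 179 CPM (−1.38 ± 0.33), and Ctsc, a cathepsin gene, at 7263, 4577, 4282 and 1338 CPM (−1.08 ± 0.59). Of 23 tested genes of lipid droplets and cholesterol efflux, 9 were higher (39.1%, all genes 23.6%) and 3 lower (13%, all genes 20.3%) without overlap. Those counts became 16 (69.6%) and 5 (21.7%) when EGFP-positive replicate 2 was left out, against 36.6% and 33.0% of all genes. Their median log2 fold change was 0.20 (all genes 0.06) and lay between −0.03, without EGFP-positive replicate 1, and 0.53, without EGFP-positive replicate 2, when each library was left out in turn. Abca1, the cholesterol exporter, was at 91.5, 80.7, 218 and 136 CPM (1.04 ± 0.33).

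The list of genes of cell cycle and DNA replication had 39 tested members, of which 2 were higher (5.13%, against 23.6% of all genes) and 13 lower (33.3%, against 20.3%) without overlap. With EGFP-positive replicate 2 left out the counts were 3 and 30 (7.69% and 76.9%, all genes 36.6% and 33.0%). A list median of −0.25, against 0.06 over all genes, ran from −1.04 without EGFP-positive replicate 2 to 0.16 without EGFP-positive replicate 1 over the 4 fits with 1 library left out. Rrm2, a ribonucleotide reductase subunit gene, was at 70.3, 59.4, 24.5 and 12.2 CPM (−1.82 ± 0.45). The cell cycle result thus rested on the choice of library. Of 35 tested type I interferon response genes, 7 were higher (20%, all genes 23.6%) and 4 lower (11.4%, all genes 20.3%) without overlap. On 3 libraries, leaving out EGFP-positive replicate 2, 12 were higher (34.3%, all genes 36.6%) and 4 lower (11.4%, all genes 33.0%). The list's median was −0.03 (all genes 0.06), with −0.19 (without EGFP-positive replicate 1) and 0.29 (without EGFP-negative replicate 1) as the extremes on leaving out 1 library. Cxcl10 is 1 of the lower members of the interferon list. The list of apoptosis genes had 26 tested members, of which 5 were higher (19.2%, against 23.6% of all genes) and 7 lower (26.9%, against 20.3%) without overlap. Those counts became 12 (46.2%) and 8 (30.8%) when EGFP-positive replicate 2 was left out, against 36.6% and 33.0% of all genes. The median log2 fold change was −0.28 (all genes 0.06) and lay between −0.56, without EGFP-positive replicate 1, and 0.11, without EGFP-positive replicate 2, when each library was left out in turn. Among them was the caspase inhibitor gene Cflar at 25.7, 29.2, 63.7 and 71.0 CPM (1.29 ± 0.33).

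**Figure D5:**
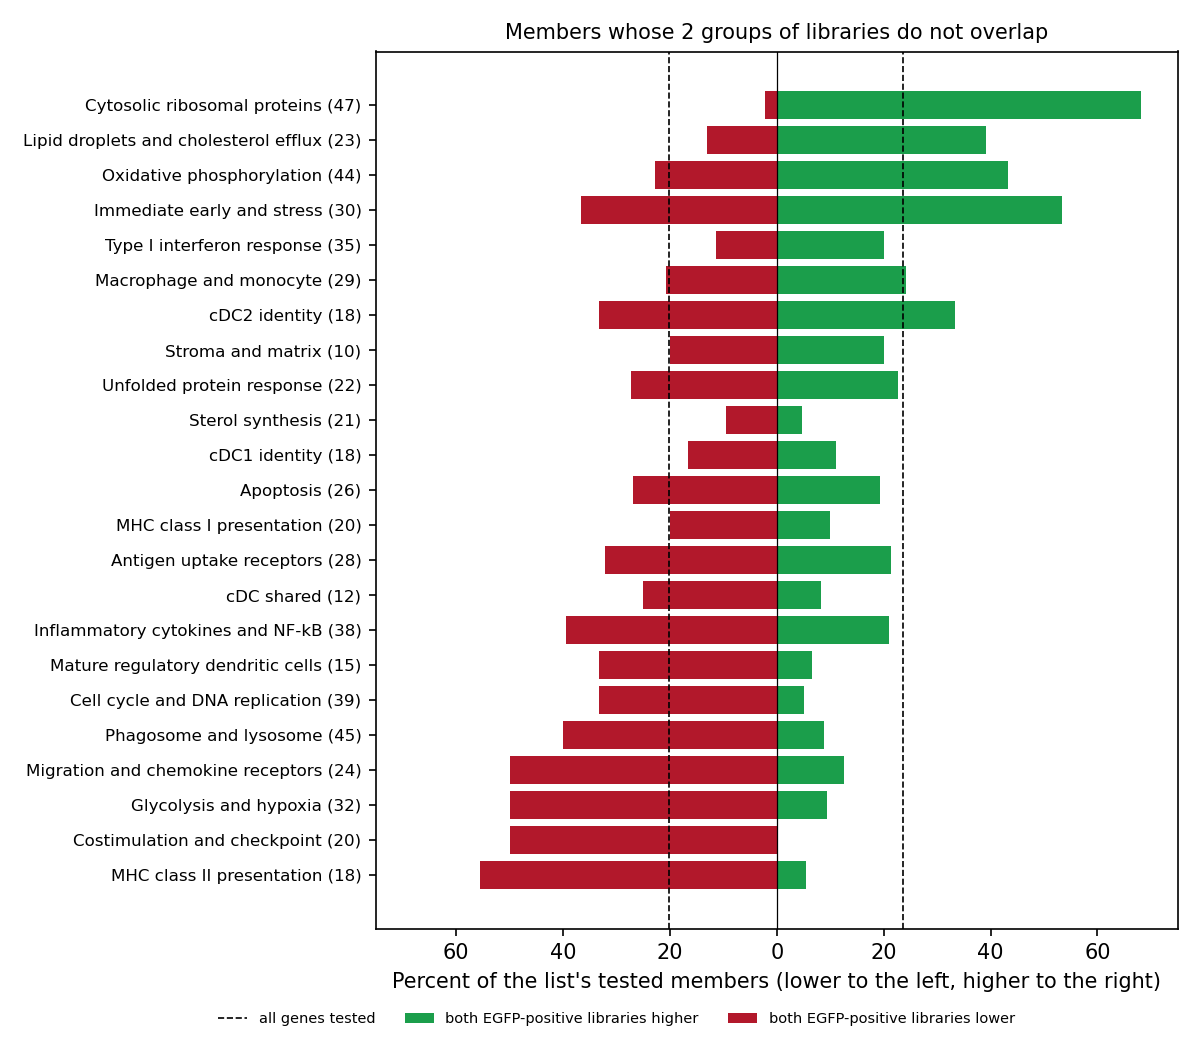
For each list with 10 or more tested members (number in brackets), bars give the percent of members for which both EGFP-positive libraries lay above (green, right) or below (red, left) both EGFP-negative ones. Dashed lines mark the same for all genes tested, 23.6% higher and 20.3% lower; ribosomal protein genes reach 68.1% on the higher side and MHC class II genes 55.6% on the lower side.

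Whether EGFP went with the same differences in cDC1, the subset known for cross-presentation to CD8 T cells, was asked in a fit of all 8 libraries. The difference between the EGFP effects of cDC2 and cDC1 passed the threshold for 0 of 11394 genes (background 0%, smallest adjusted p = 0.141 in edgeR), with 1180 at an unadjusted p under 0.05, 714 called by DESeq2 and 1 by voom with quality weights. The count was 515 without EGFP-positive cDC1 replicate 1 and 668 without replicate 2, and the 2 EGFP-positive cDC1 libraries differed widely from each other. Slc16a3, lower in EGFP-positive cDC2, was at 38.7, 32.7, 195 and 329 CPM in cDC1 in the same order of libraries. Its difference between the subsets was −4.40 ± 0.55 on the log2 scale (adjusted p = 0.141). Pkm, also lower in EGFP-positive cDC2, was at 758, 938, 2505 and 3431 CPM in cDC1 (−2.89 ± 0.41, adjusted p = 0.154), and the ribosomal gene Rps28, higher in cDC2, at 349, 313, 184 and 223 CPM (1.91 ± 0.47, adjusted p = 0.332). These 3 genes lay on opposite sides in the 2 subsets without a difference that passed the test.

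Several of the genes given above were scarce or uneven in cDC1. Folr2, C6, Saa3 and Ccl8 were each under 1 CPM in all 4 cDC1 libraries. Ccl7 was at 0.280, 3.45, 46.0 and 3.44 CPM there, Cxcl10 at 259, 15.5, 9.23 and 758 CPM and Il1a at 0.187, 12.7, 0.131 and 124 CPM. Il1r2 was at 547, 628, 187 and 487 CPM in cDC1, so its EGFP-positive libraries were the lower pair in both subsets, with a difference between the subsets of −1.38 ± 0.68 (adjusted p = 0.504). Levels in cDC1 are scaled over all 8 libraries, those in cDC2 over 4.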

How the data were processed

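RNA of flow-sorted tumour cDC2 was measured, with cDC1 libraries used for 1 comparison. Per the labels' protocols, full-length cDNA was made by a low-input method and libraries with a KAPA kit. The submitters' processing notes name Trimmomatic 0.39, STAR 2.7.5c, Cufflinks 2.2.1 and mm10, with no role given; for the counter, annotation and strand use, the record is: not given in the sources used here. As deposited, the table holds raw counts for 24369 gene symbols, of which 23075 (94.7%) matched RefSeq for GRCm38.p6. Columns were matched to samples by name, with 0 left over.

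These counts entered edgeR 4.0.16 (R 4.3.3) for the 4 cDC2 libraries alone, since EGFP-positive cDC1 libraries agree less with each other: filterByExpr, TMM, robust glmQLFit, glmQLFTest and Benjamini-Hochberg adjustment, with a threshold of 0.05. The biological coefficient of variation was 0.761. The interaction used all 8 libraries. A floor of 3 counts in 1 cDC2 library is 0.147 to 0.165 CPM before TMM scaling and covers counting error only, since reads that carry no molecular identifier can be PCR copies. DESeq2 1.42.0, voom (limma 3.58.1), RLE scaling, other filters, no robust step, a replicate block, removal of Rn45s and leaving out each library were alternatives; steps were tested on simulated data, and matplotlib drew the figures.

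Genes were named by rule: the 10 of smallest p in each direction with a mean of at least 10 CPM and no overlap, up to 4 of smallest p in each list with at least 5 CPM, and fixed markers; not all are described, and 1 marker is not reported here. Other list members given by level were chosen after their values were seen. Members and lists were chosen with earlier results of these data known. Where a list has 0 called members, counts and medians stand beside those of all genes.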

Additional observations from a re-analysis of the deposited data

How the results depend on the processing

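For EGFP in cDC2, edgeR called 0 genes under RLE scaling, the strict filter (10 CPM or more in 2 or more libraries), the fit with no robust step, removal of Rn45s and the fit of all 8 libraries with or without the block. The count was 256 with DESeq2, 23 without the low-count filter, 5 with voom and library quality weights and 0 to 16 when each library was left out in turn, the 16 without EGFP-positive replicate 1. With the replicate block 10 genes were called (Il1a, Saa3, Cald1, Fcna, Ltbp4, C6, Folr2, Il1r2, Klf2 and Tubb3). The labels give the replicates numbers and a code that same-numbered libraries of all groups share, without saying what the code marks. The deviations of same-numbered libraries from their group means correlated at 0.05 across genes. With 1 such deviation per group, that value cannot decide whether the libraries are paired. Whether they are is not known, and the block was kept as an alternative. For the difference between subsets, the count was 714 with DESeq2, 29 without the low-count filter, 1 with voom, 0 with the replicate block and 0 to 668 when each library was left out; RLE scaling moved the median of all genes from 0.20 to 0.06. The causes were not tested. Where a group was left with 1 library, that library is assumed to vary like the other groups.

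Of 100 genes followed across the settings, 90 kept their sign in all settings run. The exceptions were Sparc (−3.70 to 13.34 when each library was left out), Col3a1 (−2.96 to 10.86), Timd4 (−9.14 to 7.87), Il1rap (−0.37 to 2.46), Asns (−0.00136 with voom, −3.79 to 3.30), Flt3 (0.69 with voom, −6.62 to 8.75 when each was left out), Itgax (0.0687 in the fit of 8 libraries with the replicate block, −0.41 to 0.26), Sirpa (−0.0118 with DESeq2 and with RLE, −0.00153 without the filter, −0.0749 with voom, −0.0727 with the replicate block, −0.00281 without Rn45s, −0.59 to 0.41), Adgre1 (−1.14 to 0.0019) and C1qa (−0.98 to 0.38). Of 26 lists with a median, 12 kept its sign in 14 settings, among them MHC class II, costimulation, glycolysis, migration, ribosomal proteins and immediate early genes. Leaving out each library for counts of genes without overlap, the class II list without Cd209a and bounds from 1 library were added after the data were seen. Depth limits genes under the floor of 3 counts.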
